A study of Mus musculus with 4 samples.

Results

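GABAergic neurons outside the AgRP class were studied among mouse hypothalamic cells that carried a leptin receptor reporter. A well was assigned to them when it held at least 1000 counts outside spike-ins and mitochondrial genes and at least 12 counts per 10000 of the 5 neuron genes Snap25, Syt1, Stmn2, Tubb3 and Rbfox3. It also had to hold at least 2 counts of the GABA genes Gad1, Gad2 and Slc32a1 together, no fewer than of the glutamate transporter gene Slc17a6. Wells with 20 or more counts per 10000 of the pituitary gene Cga were left out, as were AgRP neurons, defined by at least 2 counts per 10000 of Agrp together with at least 25 of Npy. The rule found 165 cells among 1298 kept wells and among 364 neurons passing the neuron gate.

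Cells were sorted from the hypothalamus of C57BL/6 mice of genotype Lepr-cre;Rosa-LSL-tdTomato, which all groups shared, into 384-well plates and sequenced with CEL-seq2, a method that counts unique molecular identifiers (UMIs) per gene and well. Mice were fed for 3 of the plates and had been without food for 24 h for the fourth. Cre driven by the Lepr promoter switches tdTomato on for good, so that cells which expressed Lepr earlier in life are labelled too. The sources used here do not give the number, age or sex of the animals. Nothing states that plates came from separate animals, and the p-values then measure the spread among plates, which may be technical.

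GABAergic neurons release the inhibitory transmitter GABA, which the enzymes encoded by Gad1 and Gad2 make from glutamate and the carrier encoded by Slc32a1 loads into vesicles. In the arcuate nucleus the best known of them are the AgRP neurons, which drive feeding and are inhibited by leptin. Others there make growth hormone-releasing hormone (Ghrh), the peptide galanin (Gal) or, through tyrosine hydroxylase (Th), dopamine, and some neurons of the melanocortin precursor gene Pomc also carry GABA genes. GABAergic neurons with leptin receptors outside the AgRP class are known to take part in leptin's control of body weight.

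Fed plates 1, 2 and 3 gave 39, 44 and 59 of these cells, and the fasted plate gave 23. They made up 35.14% of gated neurons on fed plate 1 (exact Clopper-Pearson 95% interval 26.31 to 44.77), 42.72% on fed plate 2 (33.02 to 52.85), 55.66% on fed plate 3 (45.69 to 65.31) and 52.27% on the fasted plate (36.69 to 67.54). AgRP neurons numbered 65, 40, 23 and 16 on the same plates, glutamatergic neurons, in which Slc17a6 exceeded the GABA genes, 3, 12, 20 and 3, and 17 neurons held neither transmitter's genes in sufficient number. The median cell held 23867, 20191.5 and 27863 counts on fed plates 1 to 3, against 39658 among fasted members. Of the fasted cells 20 of 23 held Xist and no Y-linked counts, against 5, 22 and 26 cells on fed plates 1, 2 and 3, while 28, 11 and 16 fed cells and 0 fasted cells held Y-linked counts without Xist. Both were held by 2, 8 and 14 cells of fed plates 1, 2 and 3 and by 2 fasted cells. The fasted plate and fed plate 1 thus stood apart in the sex of their cells, and with 1 fasted plate an effect of feeding and one of that plate cannot be told apart. All plates use the same 384 well barcodes by design, and members filled 142 different well numbers, 23 of them on at least 2 plates.

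**Figure D1:**
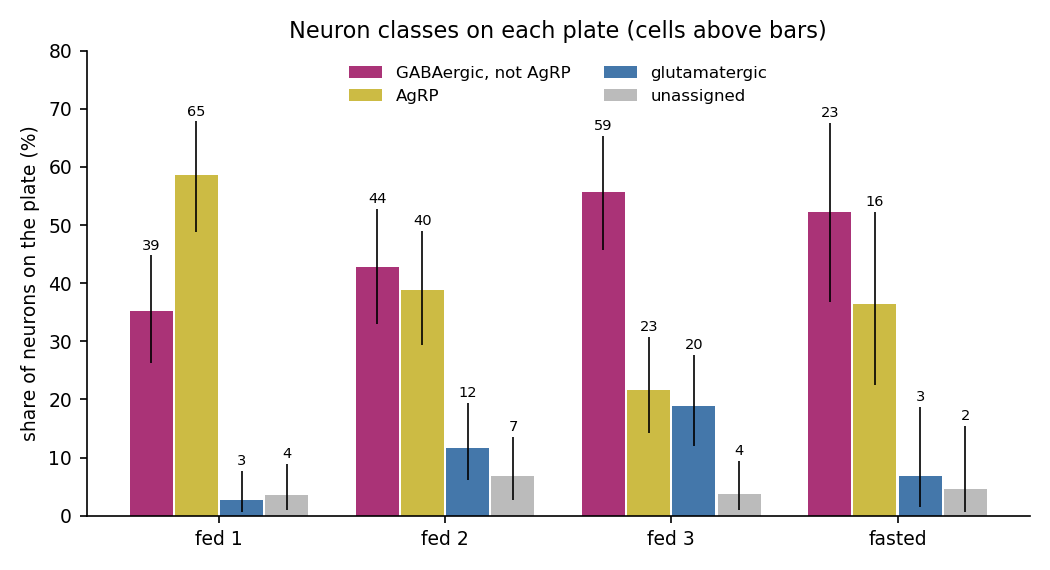
Share of each neuron class among gated neurons (y axis, %) on the 3 fed plates and the fasted plate, with the number of cells above each bar and exact 95% binomial intervals as lines. GABAergic neurons outside the AgRP class ran from 35.14% on fed plate 1 to 55.66% on fed plate 3.

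The values that chose the members are given as a description. Their neuron sum ran from 12.43 to 60.75 counts per 10000 with a median of 24.0, and 48 members lay between 12 and 20. A further 123 wells met the other conditions but lay at any value below the neuron gate, the highest at 11.82. The summed GABA gene count ran from 2 to 217 with a median of 27; 7 members had 2 or 3 such counts, and 5 of the 17 unassigned neurons had 1. All 3 GABA genes were present in 119 members, and 122 had no Slc17a6 count. Gad1 stood at 686, 580 and 527 CPM (counts scaled to the same total on each plate, here of plain plate totals over the members) with feeding and 625 with fasting, and Slc32a1 at 228, 215, 195 and 149. Agrp stood at 40.2, 25.3 and 70.5 CPM in fed members and 48.5 in fasted members, against 1190, 1250, 1260 and 2290 in AgRP neurons. Npy, which was used only together with Agrp, remained at 952, 874, 587 and 1220 CPM. The summed level of 5 AgRP neuron markers, Npy among them, was 1290, 1070, 842 and 1410 CPM in members. In wells with under 3 neuron counts per 10000 that sum was 1170, 1180, 800 and 1530 CPM. Whether Npy in members exceeded background was not tested. The GABA genes were used by the rule and so are no check of the name; Ghrh, Gal and Th, which mark known GABAergic groups of the arcuate nucleus, were each high in a minority of members.

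A cell was counted as positive for a marker when it held at least 3 counts and at least 3 counts per 10000 of it. By this gate 28 members were positive for Th, 23 for Gal and 14 for Ghrh, and 37 held at least 1 of these markers. Pomc marked 19 cells, the opioid precursor gene Pdyn 14, the thyrotropin-releasing hormone gene Trh 10 and the somatostatin gene Sst 8. Cartpt, the gene of the anorexigenic peptide CART, marked 90 members, 31, 15 and 35 of the fed plates' cells and 9 fasted cells. None of the 8 markers Ghrh, Gal, Th, Pomc, Pdyn, Trh, Sst and Penk was reached in 88 members, of which 51 reached the Cartpt gate and 37 did not. In the plot of single cells most members lie under the gate for every marker shown except Cartpt.

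**Figure D2:**
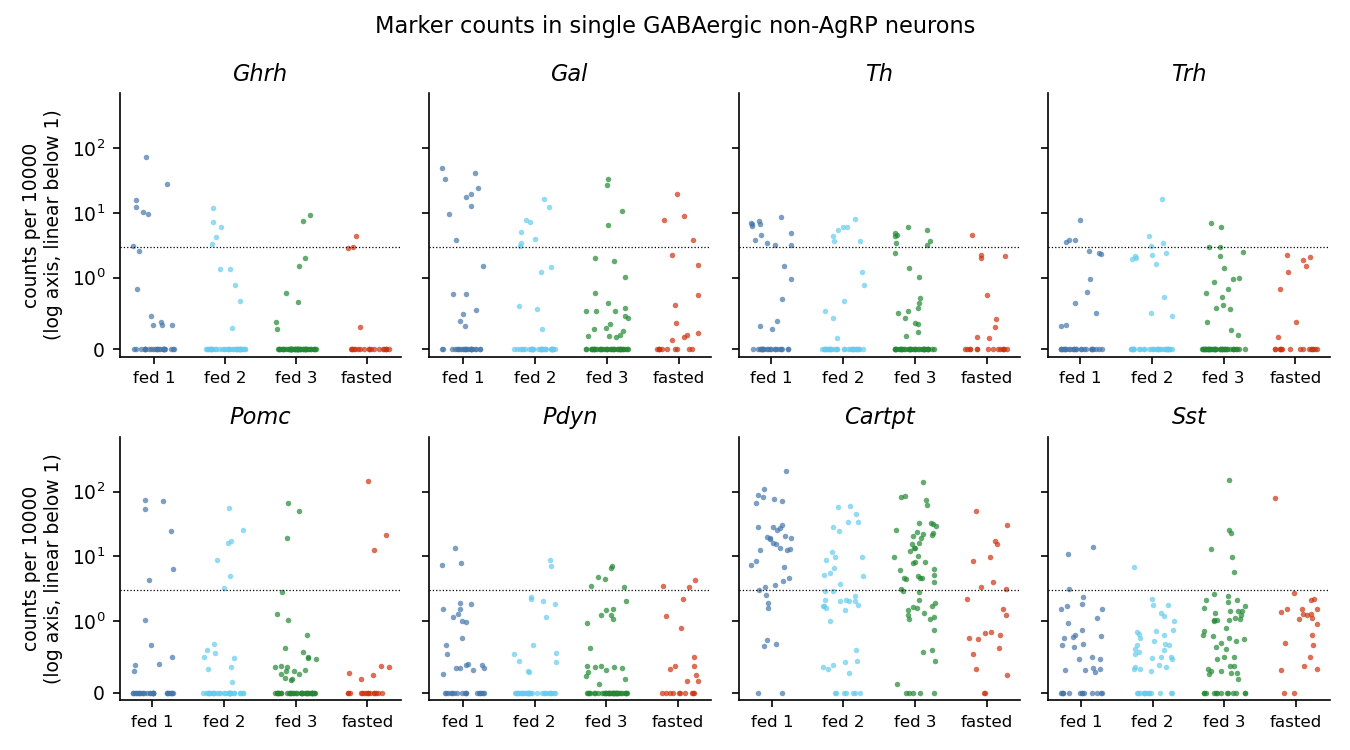
Counts per 10000 (y axis, log scale above 1 and linear below) of 8 marker genes in each member, by plate. The dotted line is the gate of 3 per 10000; the 14 Ghrh cells, 23 Gal cells and 28 Th cells sit above it with at least 3 counts, and Cartpt passes it in 90 members.

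Ghrh, the hypothalamic hormone gene that drives pituitary growth hormone release, was carried by a small set of cells that also carried Th and Gal. Of the 14 Ghrh cells 7, 5 and 2 came from fed plates 1, 2 and 3 and none from the fasted plate, where 0 of 23 cells allows a share of up to 13.0%. That 0 depends on the gate, since 3 fasted cells lay close to it: 1 had 4.42 counts per 10000 of Ghrh from fewer than 3 counts, and the others had 2.86 and 2.99, with Gal at 7.72 and 8.97. Of these cells 13 also passed the Th gate and 10 the Gal gate, and none passed the gates of Pomc, Sst or Pdyn. Gal and Th were both reached in 15 cells, and 10 members reached all 3 gates. Over the fed plates the Ghrh cells held Ghrh at 1260 CPM against 8.96 in the other members, Gal at 1990 against 82.8, Th at 502 against 51.9 and the dopamine-synthesis gene Ddc at 417 against 65.5. Esr1, the estrogen receptor alpha gene, stood at 443 against 123 CPM and Gsx1, a homeobox gene, at 190 against 55.6. Tbx3, a T-box transcription factor gene of arcuate neurons, was at 2.84 CPM from 1 count in the Ghrh cells and at 160 in the other members. Lepr itself had 2 counts in the 14 Ghrh cells, 5.67 CPM, against 61.5 CPM outside them, and was detected in 14.3% of Ghrh cells and 53.6% of the other members. Levels of Ghrh cells and Gal cells were not tested, because a test was run for a marker only where 3 plates held 5 or more of its cells.

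The 19 Pomc cells formed a set that shared no cell with the Th or Ghrh gates and 1 cell with the Gal gate. Of them 16 passed the Cartpt gate, 8 the Pdyn gate, 12 the Esr1 gate, 12 the gate of the progesterone receptor gene Pgr and 6 the gate of the prolactin receptor gene Prlr. Most Pomc cells also held counts of Slc17a6, which 122 of the 165 members lacked. In 1 of the Pomc cells it stood at 3.16 counts per 10000 against 5.16 of the GABA genes. In fed cells Pomc stood at 3410 CPM inside this set and 20 outside it, Pdyn at 352 against 55.9, Prlr at 365 against 65.4, Pgr at 414 against 131 and the homeobox gene Six3 at 376 against 156. Dlx1, of the distal-less family that specifies forebrain GABAergic neurons, stood at 5.5 CPM from 3 counts against 66.4, and Gsx1 at 3.66 from 2 counts against 80.5. Trh and Th overlapped in 5 cells. The Trh cells of the fed plates held Lepr at 176 CPM, against 48.5 in the other fed members. This level leaned on single cells of fed plate 3, with 6.53 and 4.69 Lepr counts per 10000. The Trh cells of fed plate 2 held no Lepr count.

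Lepr was detected in 83 of 165 members, 50.3% (exact 95% interval 42.43 to 58.17), with 46.2, 34.1 and 55.9% in fed plates 1 to 3 and 73.9% in fasted members. Since deeper wells show more genes, every well with at least 3000 counts was thinned to 3000. Lepr was then seen in 17.5% of members (28 of 160), 13.5% of AgRP neurons, 5.26% of glutamatergic neurons, 5.42% of the wells with under 3 neuron counts per 10000 and 2.33% of oligodendrocyte wells. Before thinning the median depth was 25839 counts in members, 30671.5 in AgRP neurons, 27759 in glutamatergic neurons, 7558.5 in the 600 wells with few neuron counts and 9540 in the 45 oligodendrocyte wells. Thinned shares of the other markers in members against wells with few neuron counts were 16.2 against 1.87% for Th, 17.5 against 3.36% for Gal, 10.6 against 3.18% for Ghrh, 16.2 against 4.67% for Pomc, 14.4 against 0.187% for Trh and 20 against 1.31% for Prlr. Sst was seen in 23.8% of members and 24.5% of wells with few neuron counts, so its low counts in members were at background, and Penk at 9.38% lay under its 14.4% there.

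Cells positive for Th were compared with the other members of the same plates, by counts summed per plate, on the 3 fed plates that held at least 5 cells of each kind. Levels of tested comparisons are CPM after TMM scaling, a scaling for library composition, and changes are log2 fold differences ± standard error (SE) with adjusted p-values of edgeR's quasi-likelihood test, called at 0.05 over all genes tested. Of 8913 genes tested 253 were called, 2.84%, with 115 higher (1.29%) and 138 lower (1.55%) in Th cells. Because 13 of the 14 Ghrh cells lay within the Th gate, the comparison also separates Ghrh cells from most other members. The result depended on the gate: when 1 Th count sufficed, 52 genes were higher and 54 lower, and the calls given below ended for Gal (3.13), Ddc (0.57), Dlx1 (0.88), Esr1 (0.57), Pomc (-1.40), Pdyn (-1.12), Pcsk2 (-0.77), Prlr (-0.34), Htr2c (-0.72), Sst and Fos.

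Ghrh was higher in Th cells on each plate, at 1280, 472 and 390 CPM against 18.8, 5.95 and 3.63, with a log2 difference of 6.29 ± 0.22 (adjusted p = 4.75e-10). Gal stood at 1940, 615 and 940 CPM against 51.4, 57.1 and 105, a difference of 3.85 ± 0.42 (adjusted p = 0.0137). Slc18a3, which encodes the vesicular acetylcholine transporter, stood at 181, 157 and 56.4 CPM against 1.71, 4.76 and 4.36, a difference of 4.81 ± 0.48 (adjusted p = 3e-05). In all of these genes the lowest Th-cell value lay above the highest value of the other members. The share of all genes tested with such a gap was not counted. Ddc, which encodes the enzyme that turns L-DOPA into dopamine, was the gene called among 5 tested for dopamine synthesis and transport, at 362, 329 and 136 against 61.6, 82.1 and 67.5 CPM (1.87 ± 0.26, adjusted p = 0.000705). Trh was higher by 2.09 ± 0.35 (adjusted p = 0.0036), but lost its call without fed plate 3, at 1.74.

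Among 14 neuropeptide genes tested, Trh, Gal and Ghrh were higher and Sst, Pomc and Pdyn lower in Th cells, with a list median of -0.56 against -0.0039 over all genes. Pomc stood at 4.21, 14.3 and 28.2 CPM in Th cells and 1050, 811 and 449 in the others (-5.60 ± 0.35, adjusted p = 1.87e-06). Pdyn fell by 1.31 on the log2 scale, a call lost without fed plate 1 (-0.78) and without fed plate 3 (-1.81). Sst fell by 2.57, and its call was lost without fed plate 1 (-2.50) or fed plate 3 (-1.64). The proprotein convertase gene Pcsk2, which cleaves peptide precursors, stood at 46.3, 42.9 and 18.8 CPM in Th cells and at 222, 351 and 288 in the others (-2.96 ± 0.29, adjusted p = 2.7e-05).

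Of 31 transcription factor genes 3 were higher, Foxp2, Dlx1 and Gsx1, and 9 lower, with a median of -0.68. Foxp2, of the forkhead family, stood at 185, 208 and 296 CPM against 8.56, 26.2 and 29.0 (3.42 ± 0.28, adjusted p = 8.79e-06). Gsx1 stood at 143, 229 and 197 against 37.7, 64.2 and 45.7 CPM (1.96 ± 0.23) and Dlx1 at 210, 107 and 113 against 49.6, 25 and 47.9 (1.76 ± 0.28). Tbx3 was lower, at 8.41, 7.16 and 9.4 against 240, 137 and 188 CPM (-4.50 ± 0.37, adjusted p = 9.91e-06). Tbx19, a T-box gene outside that list and known from pituitary cells that make Pomc, had no count in Th cells and 67.8 to 108 CPM in the others, which makes it at least 16.6-fold lower against a floor of 3 counts over the group. The serotonin receptor gene Htr2c likewise had no count in Th cells and was at least 10.2-fold lower.

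Of 30 receptor genes 1 was higher, Esr1, and 5 lower, with a median of -0.20. Esr1 stood at 311, 329 and 263 CPM against 176, 163 and 100 (1.07 ± 0.18, adjusted p = 0.0036), with the call lost without fed plate 3 (0.90). Prlr stood at 46.3, 7.16 and 9.4 against 116, 161 and 131 CPM (-2.52 ± 0.42), again not called without fed plate 3 (-2.14). Lepr did not pass, at 25.2, 0 and 113 CPM in Th cells and 29.1, 58.3 and 76.2 in the others (-0.21 ± 0.50, adjusted p = 0.938), and its groups overlapped. In the leptin and insulin signalling list, Foxo1, a transcription factor restrained by insulin (2.04 ± 0.29, adjusted p = 0.00132), and Pik3r1, a subunit of PI3 kinase (1.38 ± 0.25, adjusted p = 0.00602), were higher and none of the 14 tested lower. The A-type potassium channel gene Kcnd2 was also higher, at 1670, 3040 and 2350 against 563, 790 and 770 CPM (1.71 ± 0.11, adjusted p = 1.18e-06). Fos, an early gene of cell activation, was lower at 122, 222 and 296 against 382, 381 and 627 CPM (-1.16 ± 0.18, adjusted p = 0.00164), but not without fed plate 3 (-1.23), and it turned to 0.33 when 1 Th count sufficed for the gate.

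**Figure D3:**
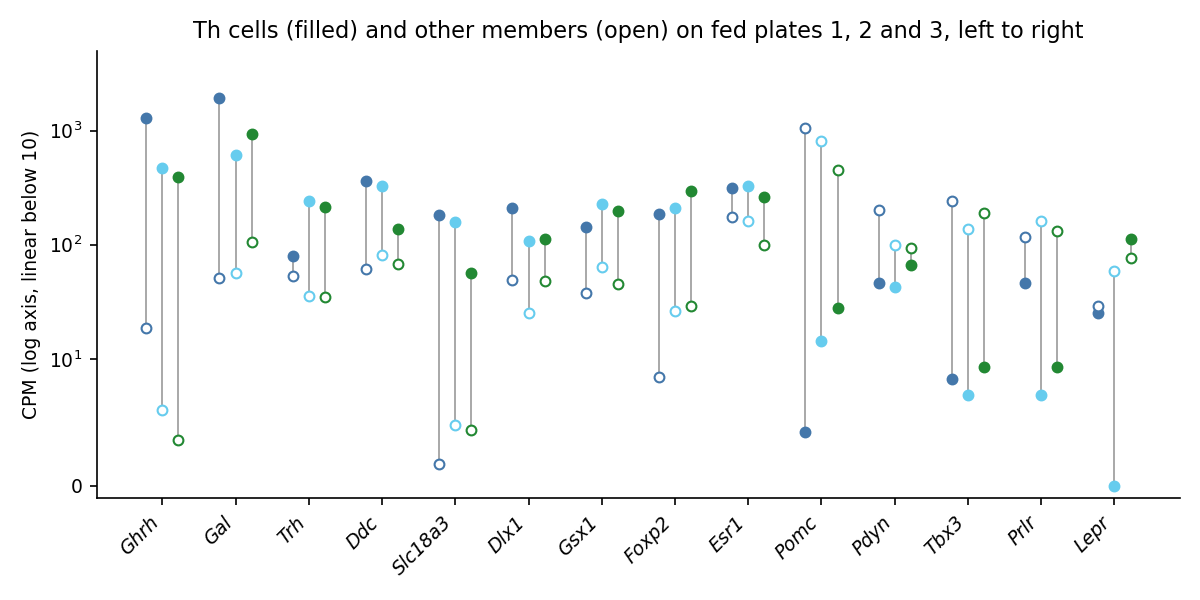
CPM (y axis, log scale above 10, linear below) of 14 genes in Th cells (filled) and the other members (open) on fed plates 1, 2 and 3, joined by plate. Ghrh, Gal, Slc18a3 and Foxp2 lie higher and Pomc and Tbx3 lower in Th cells on all 3 plates, while Lepr crosses.

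Members were next set against AgRP neurons from the same 4 plates, with plate as a block. The rule that parted them used Agrp and Npy, so genes that accompany these were separated along with them, and the 12 genes of the rule were not tested. Of 11785 genes 1562 were called, 13.3%, with 878 higher (7.45%) and 684 lower (5.8%) in members.

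Of 21 neuropeptide genes 11 were higher in members and none lower, with a median of 2.32 against -0.009 over all genes. Gal stood at 564, 129, 204 and 246 CPM in members of fed plates 1, 2, 3 and the fasted plate, against 15, 3.5, 6.41 and 22.9 in AgRP neurons (4.61 ± 0.27, adjusted p = 1e-06). Pomc stood at 704, 660, 369 and 507 against 16.2, 11.4, 14.1 and 27.9 CPM (5.05 ± 0.22, adjusted p = 5.34e-08). Trh stood at 57.3, 61.8, 54.9 and 41.2 against 1.15, 0, 2.56 and 1.99 CPM (5.27 ± 0.39). Ghrh stood at 361, 68.5, 52.0 and 30.9 against 6.92, 0.876, 0 and 0.996 (5.76 ± 0.29), Cartpt at 2840, 1070, 1590 and 804 against 324, 174, 302 and 244 (2.48 ± 0.23), Pdyn differed by 3.09 ± 0.30 and Penk by 3.18 ± 0.30. In every one of these genes the 4 member values lay above the 4 AgRP values. Over all genes tested the share with such a gap was not counted. Sst did not pass (-0.89 ± 1.35, adjusted p = 0.793).

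Of 8 dopamine genes 3 were higher in members. Th stood at 171, 72.4, 71.5 and 49.4 against 13.8, 10.5, 1.28 and 9.96 CPM (3.29 ± 0.29, adjusted p = 1.07e-06), Ddc differed by 1.42 ± 0.19, and Slc18a2, which encodes the vesicular monoamine transporter, stood at 36.6, 27.0, 31.3 and 25.7 against 1.15, 0, 0 and 3.98 CPM (4.48 ± 0.52). Gch1, needed for the cofactor of tyrosine hydroxylase, was lower.

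Receptor genes split, with 14 of 39 higher and 10 lower and a median of 0.12. Esr1 stood at 203, 177, 115 and 152 against 14.4, 14.0, 12.8 and 16.9 CPM (3.50 ± 0.18, adjusted p = 3.12e-10), Prlr at 90.5, 131, 108 and 186 against 9.81, 21.0, 12.8 and 22.9 (2.96 ± 0.17), and Pgr and the neuropeptide Y receptor gene Npy1r differed by 1.74 ± 0.13 and 2.09 ± 0.27. Gpr101, an orphan receptor gene outside that list, was at 96.2, 108, 141 and 60.7 against 1.73, 1.75, 1.28 and 0.996 CPM (5.95 ± 0.28, adjusted p = 1.58e-10). The growth hormone receptor gene Ghr was lower in members, at 141, 187, 197 and 311 against 649, 866, 770 and 1820 CPM (-2.23 ± 0.11, adjusted p = 1.6e-10). Npy2r (-2.28 ± 0.13), the calcitonin receptor gene Calcr (-2.47 ± 0.26), the ghrelin receptor gene Ghsr (-2.95 ± 0.36) and the melanocortin receptor gene Mc3r (-1.84 ± 0.28; -0.62 and not called at a neuron gate of 20) were lower too. Lepr did not differ beyond its spread, at 26.4, 47.3, 76.2 and 82.3 against 28.3, 40.3, 56.4 and 223 CPM (-0.33 ± 0.33, adjusted p = 0.641), and its difference turned to 0.22 without the fasted plate.

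Of 39 transcription factor genes 20 were higher in members and 11 lower, with a median of 1.11. Dlx1 stood at 90.5, 34.8, 53.2 and 114 against 2.31, 0, 3.84 and 6.97 CPM (4.59 ± 0.33, adjusted p = 2.62e-08), Dlx2 differed by 4.32 ± 0.41, and Gsx1 stood at 64.2, 83.0, 62.0 and 38.1 against 1.15, 4.38, 6.41 and 1.99 CPM (4.29 ± 0.32). Dlx6, Hmx2 and Lhx1 had no count in AgRP neurons and were at least 29.0-fold, 25.5-fold and 18.4-fold higher in members, all above the list's median. Foxp2 (3.37 ± 0.28) and Nkx2-1 (3.33 ± 0.29) were also higher. Otp, a homeobox gene of arcuate and paraventricular neurons, was lower at 26.4, 17.4, 31.9 and 89.5 against 751, 626, 564 and 608 CPM (-4.04 ± 0.45, adjusted p = 0.00895), without its call but with a like value of -4.01 when fed plate 3 was left out. Bsx, a homeobox gene needed for Agrp and Npy expression, stood at 13.8, 4.83, 7.68 and 9.26 against 68.1, 76.2, 57.7 and 36.9 CPM (-2.75 ± 0.27).

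Among leptin and insulin signalling genes 2 of 16 were higher and 5 lower, with a median of -0.28, and the substrate gene Irs4 fell by 1.53 ± 0.10 and Stat3 by 0.59 ± 0.12, the latter not called at a neuron gate of 20 (-0.50) or without the block (-0.55). Of 15 heat shock genes 12 were lower and none higher in members, with a median of -0.50, such as Dnajb1 (-1.09 ± 0.14) and Hsp90ab1 (-0.50 ± 0.08); DESeq2 called 6, and without the plate block neither Dnajb1 (-1.02) nor Hsp90ab1 (-0.47) was called. Median depth was also lower in members on every plate, from 20191.5 to 39658 counts against 26593 to 74144.5 in AgRP neurons, and its part in these list counts was not tested. Of 15 GABA receptor genes 7 were higher and 2 lower, with the GABA-A subunit gene Gabrb2 at 2.96 ± 0.30, and the T-type calcium channel gene Cacna1g was higher by 2.91 ± 0.30.

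Against glutamatergic neurons only fed plates 2 and 3 held at least 5 cells of each class, so the fit had 1 residual degree of freedom and every gene took the spread pooled over genes. Of 10353 genes 622 were called, 6.01%, with 260 higher (2.51%) and 362 lower (3.5%) in members; DESeq2 called 31 and 63. Of 22 neuropeptide genes 7 were higher and 6 lower, with a median of 0.07 against 0.01 over all genes.

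Pomc stood at 674 and 378 CPM in members against 5.92 and 12 in glutamatergic neurons (5.68 ± 0.32), Gal at 132 and 209 against 8.88 and 4.0 (4.84 ± 0.41) and Cartpt at 1090 and 1630 against 201 and 114 (3.14 ± 0.19). Ghrh stood at 70.0 and 53.2 against 5.92 and 4.0 CPM (3.61 ± 0.55). The tachykinin gene Tac2 and Kiss1, both of arcuate neurons that control reproduction, were lower in members, at 35.5 and 20.6 against 2010 and 366 CPM (-5.07 ± 0.22) and at 1.97 and 4.84 against 145 and 38.0 CPM (-4.28 ± 0.52). Adcyap1, which encodes PACAP, fell by 3.20 ± 0.30, and Penk, higher than in AgRP neurons, was lower than in glutamatergic neurons, at 23.6 and 21.2 against 512 and 72.1 CPM (-3.25 ± 0.26). Penk was not called by DESeq2 (-3.11), with mitochondrial shares under 30% (-3.25), with at least 4 transmitter counts (-3.33) or without the block (-3.63), and its thinned share in members was at background. Th was at 73.9 and 73.2 in members against 0 and 202 CPM and did not pass (-0.32 ± 0.27, adjusted p = 0.683); DESeq2 gave 2.77.

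Of 42 transcription factor genes 15 were higher and 13 lower, with a median of -0.27. Isl1, a LIM homeobox gene, stood at 168 and 167 CPM against 20.7 and 6.01 (3.78 ± 0.36), Six3 at 197 and 160 against 29.6 and 64.1 (1.84 ± 0.26) and Tbx3 at 114 and 158 against 56.2 and 38.0 (1.58 ± 0.28). Against AgRP neurons Isl1 was called lower in members, though not without the plate block. Dlx1, Dlx6 and Foxd2 had no count in glutamatergic neurons and were at least 13.7-fold, 6.07-fold and 12.6-fold higher. Foxp2 was lower by 1.85 ± 0.23 and Otp by 1.35 ± 0.37. At a neuron gate of 20 neither was called (-1.75 and -1.61), and Otp was not called by DESeq2 (-0.94), with at least 4 transmitter counts (-1.31) or without the block (-1.52). DESeq2 called 9 of the 42 genes, and neither Tbx3 (1.54) nor Dlx1 among them.

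Lepr was higher in members, at 48.3 and 78.1 against 17.8 and 36.0 CPM (1.22 ± 0.36, adjusted p = 0.0168), but DESeq2 did not call it (1.25), nor did the fit without the plate block (1.18). Ghr (1.08 ± 0.23, adjusted p = 0.000101), Npy1r (1.66 ± 0.39), Stat3 (1.01 ± 0.21) and Irs4 (1.24 ± 0.21) were higher, and DESeq2 called none of these 4. Htr2c was lower, at 34.5 and 58.1 against 349 and 314 CPM (-2.81 ± 0.22), and so was Prlr (-0.89 ± 0.21), though not by DESeq2 or at a neuron gate of 20 (-0.87). The endothelial genes Flt1 and Ly6c1, at 152 and 163 CPM in members of fed plate 3 but 10.8 and 14.8 on fed plate 2, were also called; the summed level of 6 endothelial markers in members was 255, 38.9 and 423 CPM with feeding and 73.8 with fasting, and their part in the comparison was not tested. Sst likewise rested on fed plate 3, at 578 CPM against 57.2 on fed plate 2.

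**Figure D4:**
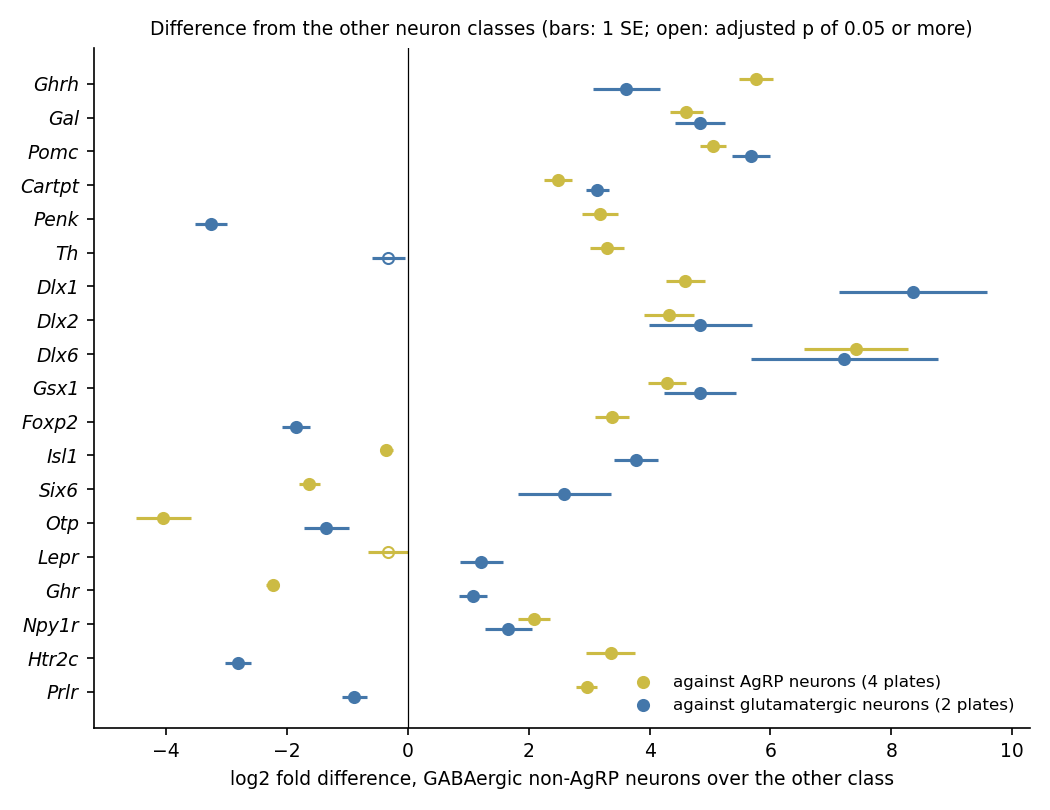
Log2 fold difference (x axis) of 19 genes in GABAergic neurons outside the AgRP class over AgRP neurons (4 plates) and over glutamatergic neurons (2 plates), with 1 SE. Ghrh, Gal, Pomc, Cartpt and the Dlx genes lie right of 0 in both; Dlx1 and Dlx6 had no count in glutamatergic neurons and Dlx6 none in AgRP neurons, so their fitted values are not bounds. Penk, Foxp2, Htr2c, Prlr, Ghr, Isl1, Six6, Lepr and Th lie on opposite sides, with 1 side not called for Lepr and Th.

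Fasted members were compared with fed members over 1 fasted and 3 fed plates, and the spread was taken from the fed plates. Below, levels of AgRP neurons and of wells with few neuron counts, and summed marker levels, are plain CPM. Levels of single genes in members are TMM-scaled. Of 12136 genes 77 were called, 0.634%, with 55 higher (0.453%) and 22 lower (0.181%) on the fasted plate; DESeq2 called 18 and 6. Without fed plate 1 the counts were 251 and 162, without fed plate 2 they were 63 and 74, and without fed plate 3 they were 120 and 53, and 77, 56 and 74 of the 77 genes were called there too. Among cells with Xist and no Y-linked counts (Xist-only cells) of fed plates 2 and 3 and the fasted plate, 98 genes were higher and 42 lower, with 60 of the 77 among them.

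Over all members the neuropeptide and dopamine genes that mark the subsets were not called. None of 25 neuropeptide genes and none of 9 dopamine genes passed edgeR's test, while 6 and 1 had an unadjusted p under 0.05 and DESeq2 called 0 of either. Ghrh stood at 373, 69.47 and 52.51 CPM with feeding and 31.24 with fasting (-2.35 ± 2.19, adjusted p = 0.808), and Gal at 582.6, 131.1 and 205.9 against 248.9 (-0.29 ± 1.24, adjusted p = 0.964). Th stood at 176.4, 73.38 and 72.21 against 49.98 CPM (-1.07 ± 0.68, adjusted p = 0.689), and was called without fed plate 3, at -1.30. Fed plate 1 was the highest in all 3 genes, and for Gal the fasted value lay within the fed range. Sst (1.16 ± 1.61) and Nts (1.18 ± 1.44) were called only without fed plate 3, at 2.52 and 2.85, and among Xist-only cells. Yet 1 cell held 83.2% of the Sst counts of all fasted members. Nts had counts in only 3 of 23 fasted and 6 of 142 fed members. Among Xist-only cells, a comparison without fed plate 1, Ghrh was called lower (-1.33, adjusted p = 0.0474 by edgeR) and Gal higher (1.06, adjusted p = 0.0114 by edgeR). Over all fasted members 1 cell held 76.7% of the Ghrh counts and 1 cell 50.6% of the Gal counts. Whether the calls of these 4 genes hold without such cells was not tested.

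Leptin signalling genes (0 of 16 called, 1 at an unadjusted p under 0.05, 0 by DESeq2) and receptor genes (0 of 35, 5 and 0) did not pass either. Lepr stood at 27.24, 47.94 and 76.98 CPM with feeding and 83.31 with fasting (0.66 ± 0.43, adjusted p = 0.671), with the fasted value just above the highest fed plate, and at -0.29 among Xist-only cells. Socs3, the leptin-induced feedback inhibitor, stood at 33.16, 4.892 and 48.34 against 11.45 CPM (-1.37 ± 1.66, adjusted p = 0.848). Ghr stood at 145.7, 189.8 and 199.3 against 314.5 (0.81 ± 0.27, adjusted p = 0.22). It was called without fed plate 1, at 0.69, and at a neuron gate of 20, at 1.19. The lists of 19 clock, 19 endoplasmic reticulum stress, 19 cholesterol synthesis, 12 glucocorticoid response, 15 immediate early, 17 synaptic release and 19 glutamate receptor genes also had 0 calls by edgeR and by DESeq2, with 4, 1, 3, 3, 0, 3 and 4 genes at an unadjusted p under 0.05.

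Heat shock genes, whose products refold damaged proteins, held 3 of the 22 lower genes. Of 15 tested, Hspa1b, Hspa1a and Hspb1 were lower and none higher, with a median of -0.43 against -0.03 over all genes; DESeq2 called 2, without Hspb1. At a neuron gate of 20 none of the 3 was called (-2.28, -1.31 and -2.20), nor were Hspa1b (-3.33) and Hspa1a (-1.87) in thinned cells, with the direction kept. Hspa1b, at chromosome 17 positions 34956436 to 34959238 (GRCm38), stood at 142.1, 139.9 and 129.5 CPM in fed and 19.79 in fasted members (-2.78 ± 0.38, adjusted p = 7e-05), with counts in 3 of 23 fasted and 70 of 142 fed members. Hspa1a, beside it at 34969190 to 34972156, stood at 155.1, 255.4 and 270.9 against 63.52 CPM (-1.85 ± 0.35, adjusted p = 0.00574). Hspb1 stood at 22.5, 30.33 and 40.58 against 4.165 CPM (-2.90 ± 0.64, adjusted p = 0.0157), but 47.5% of its fed counts came from 1 cell, and its call was lost without the 3 fed members that held 20 or more counts per 10000 of non-neuronal markers (-2.18) and among Xist-only cells (-1.58). Hspa1a and Hspa1b are near-identical copies, so how reads were split between them is uncertain.

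The promoters of these 3 genes hold the heat shock element read by HSF1 in its short inverted form, GAANNTTC, which reads the same on both strands. It was searched for in the 250 bases before each start in RefSeq (GRCm38.p6) and is shown in capitals, 5′ to 3′ on the gene's strand, because these are the lowest heat shock genes of the fasted plate. The windows are chr17:34959324-34959353 (minus strand) for Hspa1b, chr17:34972242-34972271 (minus strand) for Hspa1a and chr5:135887811-135887840 (plus strand) for Hspb1.
Hspb1: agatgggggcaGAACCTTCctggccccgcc
Hspa1a: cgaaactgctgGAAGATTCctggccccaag
Hspa1b: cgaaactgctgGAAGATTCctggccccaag
The motif was found in 6 of the 12 heat shock genes with a promoter entry and in 2088 of 27025 genes, 7.73%. The printed windows of Hspa1a and Hspa1b are the same, and their 250 bases differ at 3 positions. A match describes these letters and is not a measured binding site.

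The fall of Hspa1b and Hspa1a was also present outside the members. In AgRP neurons Hspa1b stood at 190, 218 and 205 CPM with feeding and 14.0 with fasting, and in wells with few neuron counts at 335, 168 and 153 against 40.4 (plain CPM). The difference between the members' and the AgRP neurons' change was 1.02 ± 0.48 for Hspa1b (adjusted p = 0.391) and -0.68 ± 0.35 for Hspa1a (adjusted p = 0.467). In wells with few neuron counts 0 of 14266 genes were called by edgeR, with 595 at an unadjusted p under 0.05 and 5 called by DESeq2.

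Genes of neuronal signalling were called in both directions. Kcnip4, a subunit that regulates A-type potassium channels, stood at 1183, 939.3 and 712.5 CPM in fed and 3035 in fasted members (1.69 ± 0.31, adjusted p = 0.0025), with 27.4% of the fasted counts in 1 cell; its value was 1.69 without fed plate 2, where it was not called. Gabrb2, a GABA-A receptor subunit gene, stood at 20.13, 50.88 and 45.95 against 134.3 CPM (1.75 ± 0.34, adjusted p = 0.0144), and Gabre, another subunit gene, at 101.8, 93.93 and 87.72 against 33.32 (-1.5 ± 0.35, adjusted p = 0.028; -1.49 and not called without fed plate 2). These were the 2 genes called of 15 tested on that list, of which DESeq2 called 0, and Gabre was not called without the cells at the Agrp or Npy level (-1.36). Kcnn3, of a calcium-activated potassium channel, was the other gene besides Kcnip4 called of 34 ion channel genes, at 18.95, 27.4 and 29.84 against 68.73 CPM (1.40 ± 0.35, adjusted p = 0.0451). Kcnn3 was at 0.72 and not called without the Pomc cells, nor was it called by DESeq2 (1.43), among Xist-only cells (1.25), with mitochondrial shares under 30% (1.36), with at least 4 transmitter counts (1.35) or without members holding non-neuronal markers (1.38). Ngfr, the low-affinity neurotrophin receptor gene, stood at 48.55, 44.03 and 76.98 against 5.207 CPM (-3.44 ± 0.56, adjusted p = 0.000572), and Shisa6 (-1.92 ± 0.42), a transmembrane gene, and Sntb1, a syntrophin gene with 2 fasted counts, were lower but not called by DESeq2. The fasted value lay outside the fed range for Kcnip4, Gabrb2, Gabre and Kcnn3, which were named because they were called, so that position is no separate result. For Ngfr, Shisa6 and Sntb1 that position was a condition of being named and is no result. How many of all genes tested lay outside the fed range was not counted.

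Of 46 transcription factor genes 2 were higher, Otp and Nr5a2, and 2 lower, Lhx2 and Nkx2-4, while DESeq2 called 0. At a neuron gate of 20 Lhx2 (-2.15) and Nkx2-4 (-1.45) were not called, without Pomc cells Lhx2 (-2.58) and Nr5a2 (2.43) were not, nor was Lhx2 among Xist-only cells (-2.27). Nkx2-4 stood at 78.16, 95.89 and 81.75 CPM against 24.99 (-1.77 ± 0.37, adjusted p = 0.0118) and Lhx2 at 41.45, 33.27 and 23.27 against 4.165 (-2.90 ± 0.64, adjusted p = 0.0158). Nr5a2, an orphan nuclear receptor gene, stood at 7.105, 12.72 and 9.548 against 44.78 CPM (2.17 ± 0.46, adjusted p = 0.0117). Otp stood at 27.24, 17.61 and 32.22 against 90.6 CPM (1.79 ± 0.33, adjusted p = 0.00287), but 83.9% of its fasted counts came from 1 cell, and its value was -0.07 without the cells that reached either the Agrp or the Npy level of the AgRP rule. Ndst4 (2.98 ± 0.42) and Pde1c (2.05 ± 0.33) also drew 71.0 and 75.6% of their fasted counts from 1 cell. In wells with few neuron counts Nkx2-4 stood at 72.1, 163 and 181 CPM with feeding and 57.1 with fasting. Lhx2 stood there at 92.8, 208 and 164 against 98.2 CPM. The part of RNA from such cells in the members' lower Nkx2-4 and Lhx2 was not tested.

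Several genes higher on the fasted plate mark other cell types. Chga, a secretory granule gene of neurons and endocrine cells, stood at 463, 364 and 408.2 CPM against 1086 in members (1.40 ± 0.28, adjusted p = 0.00628; 1.33 and not called without fed plate 2), and in wells with few neuron counts at 1230, 23.0 and 79.3 against 2360. Pitx1, a pituitary transcription factor gene, had no count in fed members and was present in 13 of 23 fasted members, at least 36.3-fold higher, and stood at 57.6, 1.05 and 0.944 against 110 CPM in wells with few neuron counts. Chga, Pitx1 and Cyp2f2 were the 3 pars tuberalis markers tested and all stood higher on the fasted plate. The summed level of 7 such markers in members was 482, 363 and 407 CPM with feeding and 1190 with fasting. Most of that sum was Chga, which is also a gene of neurons and stood at 343, 211 and 196 against 897 CPM in AgRP neurons. Pitx1 and Bpifa1 were at 0 in members on every fed plate. The summed level of 8 oligodendrocyte markers in members was 187, 222 and 165 against 376 CPM and that of 8 microglia markers 10.3, 17.5 and 16.6 against 83.9. The part of these cells' RNA in the fasted members' other changes was not tested.

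The fasting difference of members was then set against that of AgRP neurons on the same plates, in 1 fit with an interaction term and plate as block. AgRP neurons alone had 435 of 11912 genes called, 3.65%, with 290 higher (2.43%) and 145 lower (1.22%) on the fasted plate. Of 12703 genes 221 differed, 1.74%, 96 higher (0.756%) and 125 lower (0.984%) in members. Levels of AgRP neurons here are plain CPM. Vgf, a peptide precursor gene induced by neuronal activity, stood at 651.3, 324.8 and 362.2 CPM against 454 in members (0.03 ± 0.35, adjusted p = 0.984), whereas in AgRP neurons it stood at 71.8, 55.2 and 60.0 against 1260 (4.35), and the difference was -4.34 ± 0.22 (adjusted p = 5.7e-16). Lepr in AgRP neurons stood at 27.3, 39.1 and 55.0 against 209 CPM (2.47), and the members' change was smaller by 1.68 ± 0.32 on the log2 scale (adjusted p = 0.00184). The clock gene Per3 stood at 58.03, 101.8 and 85.33 against 140.6 CPM in members and at 133, 119 and 153 against 29.0 in AgRP neurons, a difference of 2.95 ± 0.36 (adjusted p = 1.8e-05), and Dbp, a clock output gene, differed by 3.90 ± 0.51 (adjusted p = 1.8e-05). Scg2, a granin gene, differed by -0.98 ± 0.16 (adjusted p = 0.000286). Without the plate block 1 gene was higher and 1 lower, and without fed plate 1 there were 47 and 57. Against glutamatergic neurons, of which the fasted plate held 3, 53 of 12207 genes differed in their fasting change, 0.434%, with 36 higher (0.295%) and 17 lower (0.139%). Against wells with few neuron counts 0 of 14512 genes differed by edgeR, 0%, with 530 at an unadjusted p under 0.05 and 0 called by DESeq2.

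**Figure D5:**
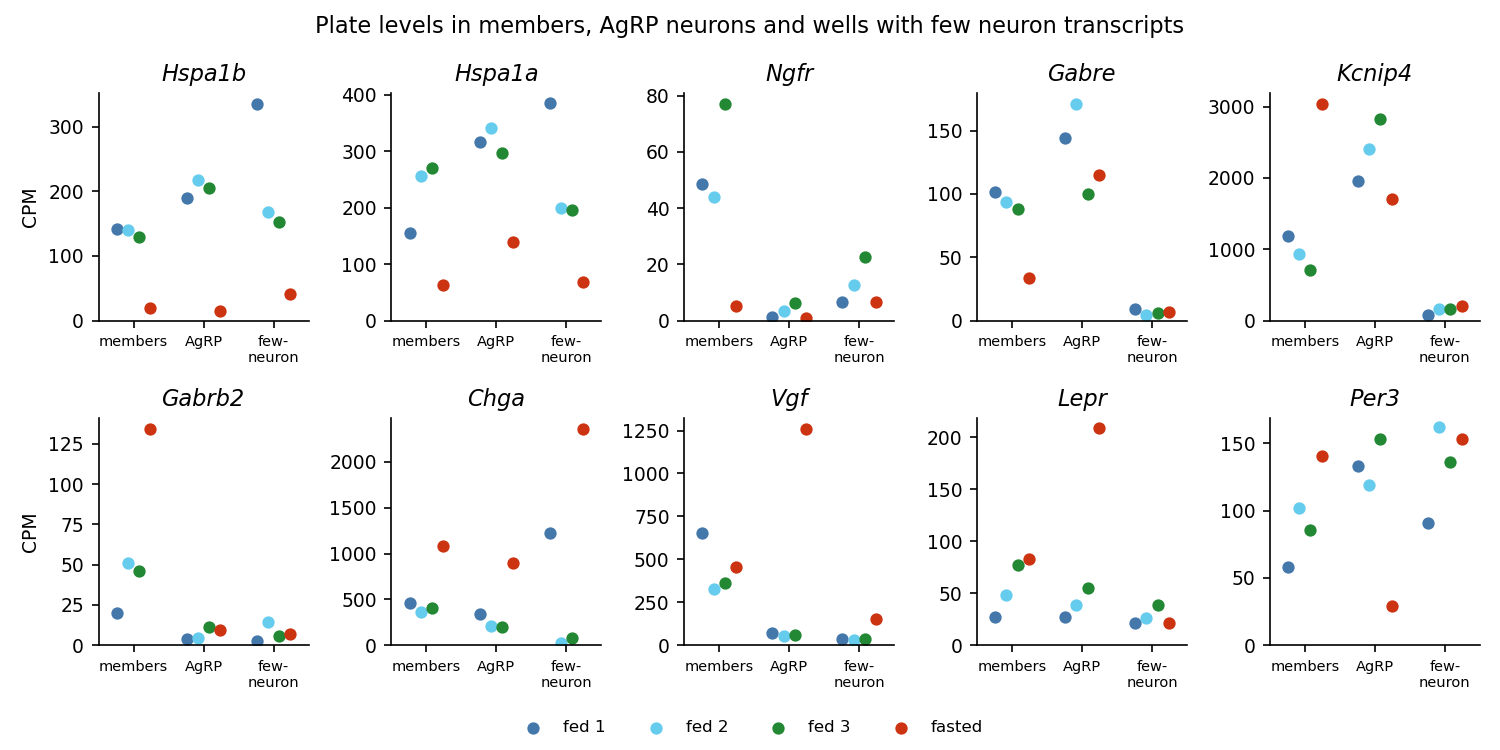
Level (y axis, CPM; TMM-scaled in members, of plain totals in the other wells) of 10 genes on each plate in members, AgRP neurons and wells with few neuron counts. Hspa1b and Hspa1a are lowest on the fasted plate in all 3 kinds of well, Ngfr and Gabre are lower and Gabrb2 and Kcnip4 higher there in members, and Vgf is high on the fasted plate in AgRP neurons (1260 CPM) but within the fed range in members (454 CPM).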

How the data were processed

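Sorted cells of 4 plates were profiled by CEL-seq2 with UMIs of 6 bases. Per the submitters' processing notes, reads were trimmed with Trim Galore 0.4.3 and aligned with STAR 2.5.3a to mm10; no UMI counter or annotation release is given in the sources used here. The deposited values are expected counts, collision-corrected UMI numbers per gene and well, and each traced to a whole number of the 4096 possible UMIs within 1e-06. They were rounded, summed per plate and class without spike-ins and mitochondrial genes, and tested with edgeR 4.0.16 (R 4.3.3, limma 3.58.1) by its quasi-likelihood test, with filterByExpr, TMM, robust estimates and p-values adjusted by Benjamini-Hochberg over every gene tested. DESeq2 1.42.0 was an alternative. With 1 fasted plate the fasting fit has 2 residual degrees of freedom and assumes that the fasted plate varies like the fed ones. Plate was a block in comparisons of classes, since both classes were sorted into the same plates. No doublet caller was run, as 1 cell was sorted per well. Yet Xist and Y-linked counts occurred together in 2, 8 and 14 members of fed plates 1, 2 and 3 and in 2 fasted members. The same held for 8 of 23 AgRP neurons of fed plate 3. Whether such wells held RNA of more than 1 cell was not tested. Scripts used Python 3.11.15, numpy 2.4.6, scipy 1.17.1, pandas 2.3.3 and matplotlib 3.10.9.

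Plate totals over members were 871572, 1029447 and 1688203 counts with feeding and 989490 with fasting. Intervals and floors of 3 counts cover counting error only. Named genes were the 10 called genes with the largest change in each direction at 20 CPM or more, with genes of the fixed lists. Those 10 also had to show no overlap of fed and fasted values, or the same sign on every plate in comparisons of classes. The members and lists were chosen with earlier results of these data known. Alternatives were DESeq2 and its size factors, no filter on low counts, other gates, cells thinned to 3000 counts, Xist-only cells, mitochondrial shares under 30%, no cells at the Agrp or Npy level, no block and leaving out each plate. Leaving out Pomc cells, leaving out members holding non-neuronal markers and the comparison with wells of few neuron counts were chosen after seeing the data. Of 35998 gene identifiers 35945 were found in GENCODE vM21, which gave coordinates on GRCm38. Simulated counts were drawn from 1 pooled profile per comparison, with the fit's spread by expression level and no effect of plate. Only genes at 20 CPM or more were changed in them, so recovery on the real plates may differ. On simulated data the fits recovered, of 100 genes each changed by log2 1 and 2, 30 and 81 for fasting (11895 genes), 90 and 100 against AgRP neurons (11570), 39 and 86 against glutamatergic neurons (10405), 40 and 85 for Th cells (8874) and 27 and 86 for the interaction (12215), with 9, 7, 11, 8 and 2 false calls.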

Additional observations from a re-analysis of the deposited data

Results flagged for a closer look

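Over all genes tested 221 of 12703 differed in their fasting change between members and AgRP neurons, 1.74%. Without the plate block only 1 gene was higher and 1 lower. For 14 of the named genes the fasting change in GABAergic neurons outside the AgRP class differed from that in AgRP neurons of the same plates by edgeR's interaction test with the block. Values are log2 differences, members minus AgRP neurons, with the single fasted plate entering both changes. The difference was positive for Dbp (3.90), Per3 (2.95), Ndst4 (4.46), Nr5a2 (2.36), Otp (1.84), Kcnn3 (1.61) and Gpc4 (1.51). It was negative for Sntb1 (-5.15), Vgf (-4.34), Shisa6 (-2.26), Gal (-1.76), Lepr (-1.68), Gabre (-1.30) and Scg2 (-0.98). Levels given next are plain CPM for AgRP neurons and wells with few neuron counts, and TMM-scaled for members. Dbp in AgRP neurons stood at 91.9, 109 and 48.8 CPM with feeding and 5.61 with fasting, and in members at 59.21, 75.34 and 31.03 against 58.32. Gal in AgRP neurons stood at 14.5, 3.4 and 6.25 against 21.5 CPM, near its level in wells with few neuron counts, which were at 21.2, 2.10 and 9.44 against 7.06. Ndst4 ranged from 0.849 to 3.75 CPM over the plates in AgRP neurons. In members 71.0% of its fasted counts came from 1 cell, as did 83.9% of those of Otp and 50.6% of those of Gal.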

How the results depend on the processing

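The counts of genes higher and lower moved with the processing. In the fasting comparison (55 and 22) DESeq2 gave 18 and 6, no filter 102 and 52, cells thinned to 3000 counts 8 and 1, a neuron gate of 20 gave 13 lower, Xist-only cells 98 and 42, and leaving out 1 plate 63 to 251 and 53 to 162. Against AgRP neurons (878 and 684) the neuron gate of 20 gave 489 and 388, thinning 235 and 198, DESeq2 422 lower, and leaving out 1 plate 607 to 965 and 441 to 834. Against glutamatergic neurons (260 and 362) DESeq2 gave 31 and 63, the neuron gate of 20 gave 122 and 156, at least 4 transmitter counts 147 and 227, and thinning 0 and 1 (116 higher at an unadjusted p under 0.05, 8 genes called by DESeq2); leaving out a plate left 1 plate and no fit. For Th cells (115 and 138) a gate of 1 count gave 52 and 54, leaving out 1 plate 36 to 180 and 46 to 208, and the gate of 10 per 10000 gave no fit. For the interaction with AgRP neurons (96 and 125) leaving out 1 plate gave 47 to 138 and 57 to 169; for that with glutamatergic neurons (36 and 17) leaving out 1 plate gave 13 to 182 and 7 to 93. Gates moved the Ghrh cells from 14 to 36 (1 count) or 6 (10 per 10000), the Gal cells from 23 to 65 or 13, and thinning moved the Lepr share from 50.3 to 17.5%. The cause was not tested.

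Without the replicate block by plate the counts were 519 and 312 against AgRP neurons, 119 and 192 against glutamatergic neurons, 65 and 89 for Th cells, and 1 and 1 and 1 and 3 for the interactions with AgRP and with glutamatergic neurons; against AgRP neurons Ghrh (5.4), Penk (3.11), Stat3, Isl1, Chga and the heat shock genes Hspa1a, Hspa1b, Hsp90ab1 and Dnajb1 then lost their call. No paired analysis was possible because the labels give the fed and fasted plates no shared replicate numbers.

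Signs turned in fasting for Vgf (-0.60 at the neuron gate of 20, -0.79 thinned, -0.29 Xist-only, -0.14 without fed plate 2, -0.09 without fed plate 3, -0.14 to 0.40 over plates left out), Dbp (-0.27, -0.63 thinned, -0.18 Xist-only, -0.21 to 0.43 over plates), Scg2 (-0.059 thinned), Fos (-0.28 Xist-only, -0.0043 to 0.49 over plates), Gal (1.06 and called Xist-only, -0.64 to 0.54 over plates), Lepr (-0.29 Xist-only) and Otp (-0.070 without cells at the Agrp or Npy level). They turned against AgRP neurons for Sst (0.17, gate of 20), Isl1 (0.14, thinned) and Lepr (0.30 thinned, -0.61 to 0.22 over plates), against glutamatergic neurons for Th (2.77, DESeq2) and Flt1 (-0.19, gate of 20), and for Th cells in Sst (0.013), Fos (0.33) and Lepr (0.19) at a gate of 1 count, Lepr over plates (-1.41 to 0.35) and Isl1 without fed plate 3 (-0.0067). Of 2037 values of named genes under alternatives, 1767 kept direction and side of the threshold.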
